A study of Mus musculus with 4 samples.

Results

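The genes described here are 8 members of the CC chemokine system that attract monocytes, measured by RNA sequencing in dorsal skin treated with imiquimod (IMQ) cream. They were taken by symbol from the 24346 gene symbols of the expression tables, and all 8 are listed there. They comprise the monocyte chemoattractant protein (MCP) group *Ccl2*, *Ccl7*, *Ccl12* and *Ccl8*, the macrophage inflammatory protein-1 pair *Ccl3* and *Ccl4*, and the receptors *Ccr1* and *Ccr2*. The Cont-IMQ group was made up of male C57BL/6 mice fed the NASH diet, which is rich in fat, cholesterol and sucrose and contains bile salt. The 7KC-IMQ group received the same diet with added 7-ketocholesterol (7KC), an oxidized cholesterol. In both groups feeding began at 8 weeks of age and lasted 3 weeks, and IMQ cream was then applied for 1 day. Each group has 2 libraries, and all 4 come from IMQ-treated skin, so the members' response to IMQ itself is not part of the comparison. The comparison addresses whether dietary 7KC altered these transcripts in skin at an early stage of psoriasis-like dermatitis. Neither the labels nor the methods say how many mice went into a library, so p-values measure the spread between these samples, part of which may be technical.

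CC chemokines are small secreted proteins named for a pair of adjacent cysteines, and they guide leukocytes through G protein-coupled receptors on the cell surface. CCL2, CCL7 and CCL12 act on CCR2, the receptor by which classical monocytes leave the bone marrow and enter inflamed tissue, while CCL3 acts on CCR1, among others. In skin, keratinocytes, fibroblasts, endothelial cells, macrophages and mast cells can produce such chemokines, and IMQ, a ligand of Toll-like receptor 7, is widely used to provoke inflammation.

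Expression is given as the FPKM values the authors deposited, which are fragment counts scaled both to exon length and to library depth. Because FPKM is scaled to gene length, levels can be set side by side between genes. For short transcripts such as *Ccl8* (511 bases), that scaling depends more on fragment length, so their levels relative to other genes are less certain. Between 7185 and 7388 symbols were listed at 0 in a library. Depth was estimated from the steps of the low values at 14960000 to 16200000 reads per library. The keratinocyte genes *Krt5* (2544 to 3062 FPKM) and *Krt14* (4132 to 5700 FPKM) were abundant in every library, and the muscle gene *Acta1* had 2106 to 3133 FPKM. The Cont-IMQ libraries differed widely in hair follicle genes, with 104 FPKM in replicate 1 and 1371 FPKM in replicate 2, summed over the 8 markers listed. Both 7KC-IMQ libraries lay between them, at 402 FPKM in replicate 1 and 353 FPKM in replicate 2. In bulk tissue, fewer cells of a type and less RNA per cell cannot be told apart.

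The ligands of the MCP group were by far the most abundant members. In all 4 libraries the order of the levels was *Ccl8*, *Ccl7*, *Ccl2* and *Ccl12*, and each of these lay above the next in both groups without overlap. By mean FPKM over the 4 libraries, *Ccl8* ranked 327th, *Ccl7* 667th, *Ccl2* 915th and *Ccl12* 1576th among all symbols. *Ccl4*, *Ccl3* and *Ccr2* followed at 3.48 to 9.71 FPKM, and the order of *Ccl4* and *Ccl3*, and of *Ccl3* and *Ccr2*, was not the same in every library. *Ccr1* was the lowest in every library, and no library of *Ccr1* reached the lowest of *Ccr2*.

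*Ccl2*, *Ccl7* and *Ccl12* were higher in the 7KC-IMQ group by similar amounts, whereas *Ccl8*, the most abundant member, and *Ccr2*, the receptor, overlapped between the groups. No member passed an adjusted p-value of 0.05 among the 15896 genes tested, where 0.00629% of genes did, a single gene (limma on log2(FPKM + 1) with Benjamini-Hochberg adjustment, used for all fold changes and p-values here). At an unadjusted p-value under 0.05, 3 of the 8 members were higher (*Ccl2*, *Ccl7* and *Ccl12*) against 7.5% of all genes, and 0 were lower against 5.47%. Without overlap between the groups, 5 of the 8 were higher (*Ccl2*, *Ccl7*, *Ccl12*, *Ccl4* and *Ccr1*) against 23.9% of all genes, and 0 were lower against 22.9%, so that 5 of 8 were separated in either direction against 46.8%. The median log2 fold change of the members was 0.27, beside -0.0056 over all genes tested. With every library rescaled to the same FPKM sum, 15% of all genes were higher and 32.1% lower without overlap, and 4 members were higher, since *Ccl4* then overlapped. For a single value, the two-sided exact permutation p cannot go below 0.333 with 2 libraries in each group.

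**Figure D1:**
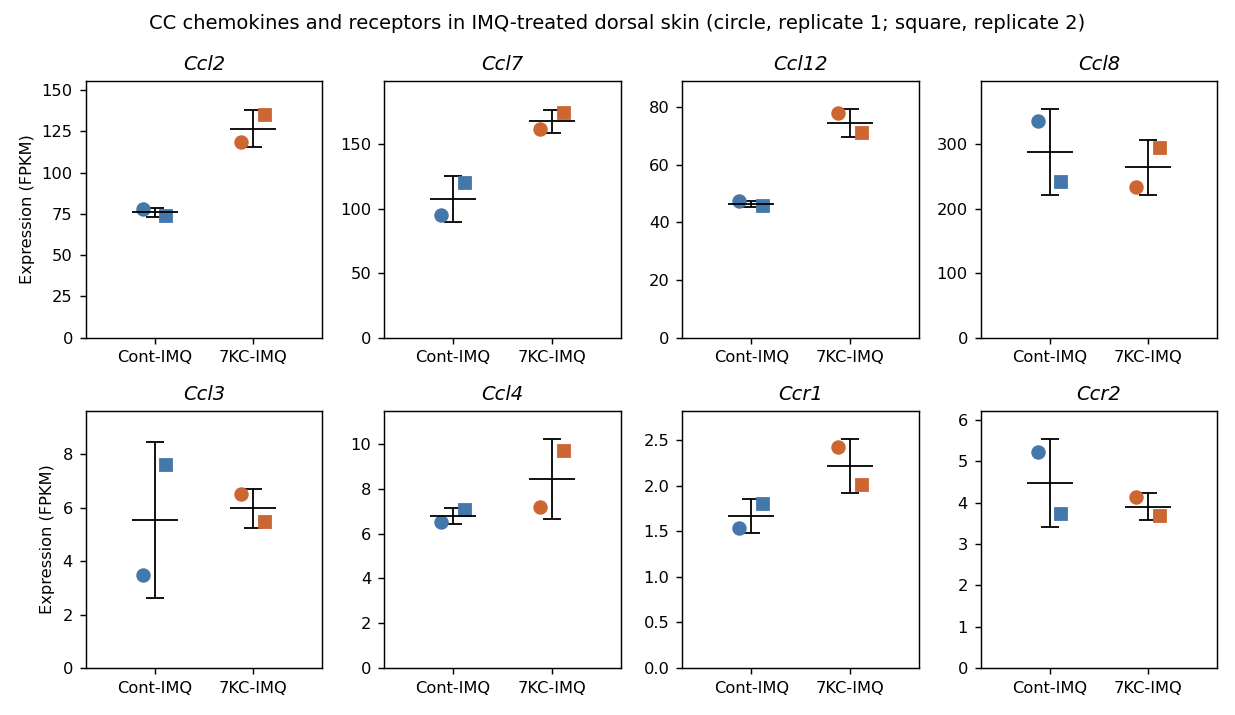
Expression (FPKM, linear axis from 0) of the 8 members in each library, with the mean (wide bar) and SD (whiskers) of the 2 libraries of a group. *Ccl2*, *Ccl7* and *Ccl12* show a gap between the groups, at 46.5 against 74.4 FPKM in mean for *Ccl12*, while the *Ccl8*, *Ccl3* and *Ccr2* points overlap.

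*Ccl2* encodes MCP-1, the principal ligand of CCR2. Replicates 1 and 2, in that order here and throughout, had 78.0 and 73.9 FPKM under Cont-IMQ against 119 and 135 FPKM under 7KC-IMQ. Both 7KC-IMQ libraries thus lay above both Cont-IMQ libraries, and the Cont-IMQ libraries were close to each other. The means were 76.0 ± 2.87 and 127 ± 11.4 FPKM (SD, n = 2), a 1.67-fold difference, and the log2 fold change was 0.73 (standard error 0.093, 95% interval 0.48 to 0.97, unadjusted p = 0.000772 and adjusted p = 0.331 in limma). The difference was larger than the spread between replicates, and leaving out any single library gave 0.64 to 0.82 on the log2 scale.

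*Ccl7* encodes MCP-3, another CCR2 ligand, which also binds CCR1. It had 95.1 and 120 FPKM under Cont-IMQ against 161 and 174 FPKM under 7KC-IMQ. The groups did not overlap, although the Cont-IMQ libraries differed more from each other than those of *Ccl2* did. The means were 108 ± 17.7 and 168 ± 8.84 FPKM (n = 2, SD), which differed by 0.64 on the log2 scale (standard error 0.13, 95% interval 0.29 to 1.00, unadjusted p = 0.0059 and adjusted p = 0.352 in limma). At the estimated depth, *Ccl7* rested on 868 and 1093 reads in the Cont-IMQ libraries and on 1574 and 1566 reads in the 7KC-IMQ libraries. The log2 fold change was 0.48 without Cont-IMQ replicate 1 and 0.81 without Cont-IMQ replicate 2.

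*Ccl12* encodes MCP-5, a CCR2 ligand found in the mouse. It had 47.2 and 45.7 FPKM under Cont-IMQ against 77.8 and 70.9 FPKM under 7KC-IMQ. The replicates of each group were close to each other and the groups were well apart. The means were 46.5 ± 1.09 and 74.4 ± 4.83 FPKM (SD, n = 2), a 1.60-fold difference, and the log2 fold change was 0.67 (standard error 0.080, 95% interval 0.45 to 0.88, unadjusted p = 0.000611 and adjusted p = 0.331 in limma). Leaving out any single library gave 0.60 to 0.73.

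*Ccl8* encodes MCP-2, which in the mouse is also known as a ligand of CCR8. It had 335 and 241 FPKM under Cont-IMQ against 233 and 294 FPKM under 7KC-IMQ. The highest value belonged to a Cont-IMQ library and the lowest to a 7KC-IMQ library, and the groups overlapped. The log2 fold change was -0.12 (standard error 0.20, 95% interval -0.66 to 0.42, adjusted p = 0.835 in limma), an interval that leaves room for a difference in either direction. Counting error does not limit this gene, as the estimated reads were 1586 and 1137 in the Cont-IMQ libraries and 1178 and 1373 in the 7KC-IMQ libraries.

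The 4 genes of the MCP group lie together on the plus strand of chromosome 11 of GRCm38 (the assembly also called mm10), with *Ccl11* between *Ccl7* and *Ccl12*. *Ccl2* spans bases 82035571 to 82037453, *Ccl7* 82045712 to 82047525, *Ccl12* 82101845 to 82103400 and *Ccl8* 82115185 to 82116799. *Ccl11*, which encodes the eosinophil attractant eotaxin, had 16.4 and 20.8 FPKM under Cont-IMQ against 20.4 and 16.8 FPKM under 7KC-IMQ, with a difference of 0.0040 on the log2 scale (standard error 0.16). Along the cluster, the log2 fold changes were thus 0.73 (*Ccl2*), 0.64 (*Ccl7*), 0.0040 (*Ccl11*), 0.67 (*Ccl12*) and -0.12 (*Ccl8*), and the next gene, *Ccl1*, had 0.34. *Ccl12* and *Ccl8* are direct neighbors, 11784 bases apart, and differed in how they compared between the groups. Their upstream sequences are shown for that reason, as the 250 bases before the annotated start from RefSeq (GRCm38.p6, plus strand, 5′ to 3′), at chr11:82101595-82101844 for *Ccl12* and chr11:82114935-82115184 for *Ccl8*. Capitals mark the TATA box letters TATAAA.
Ccl12: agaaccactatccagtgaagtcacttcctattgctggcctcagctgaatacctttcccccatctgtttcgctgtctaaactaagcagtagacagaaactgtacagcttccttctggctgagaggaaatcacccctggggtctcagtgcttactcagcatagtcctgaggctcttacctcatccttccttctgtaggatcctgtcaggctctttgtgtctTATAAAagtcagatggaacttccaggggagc
Ccl8: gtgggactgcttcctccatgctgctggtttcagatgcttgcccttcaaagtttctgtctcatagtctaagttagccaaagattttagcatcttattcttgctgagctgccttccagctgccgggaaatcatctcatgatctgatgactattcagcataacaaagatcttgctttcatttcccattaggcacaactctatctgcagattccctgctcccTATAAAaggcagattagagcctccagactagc
The TATA letters stood at -31 to -26 from the start in *Ccl12* and at -32 to -27 in *Ccl8*, and were found on either strand in 12.4% of the 32851 promoter windows searched. Of the other motifs searched on both strands, AP-1 (TGANTCA), STAT (TTCNNNGAA) and C/EBP (TTNNGCAAT), no letters matched in either window. In all windows these were found in 6.75%, 7.02% and 1.93%, respectively. Sites of other transcription factors, NF-kB among them, were not searched, so the 2 windows may differ in those. None of the 75-base windows of the 4 MCP transcripts occurs in another annotated gene.

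*Ccl8* took a smaller share of the MCP group transcripts in both 7KC-IMQ libraries. Summed over *Ccl2*, *Ccl7* and *Ccl12*, expression was 220 and 240 FPKM under Cont-IMQ against 358 and 380 FPKM under 7KC-IMQ, 1.60-fold higher in mean. With *Ccl8* included, the sums were 555 and 481 FPKM against 591 and 674 FPKM, and the ratio of the means was 1.22. *Ccl8* accounted for 60.3% and 50.1% of the sum in the Cont-IMQ libraries and for 39.4% and 43.7% in the 7KC-IMQ libraries. Within a library, the log2 ratio of *Ccl2* to *Ccl8*, each as log2(FPKM + 1), was -2.09 and -1.69 in the Cont-IMQ group and -0.97 and -1.12 in the 7KC-IMQ group. This difference of 0.85 had no overlap between the groups, and its exact permutation p of 0.333 is the smallest that 4 libraries allow. Apart from the pseudocount, a single scaling factor per library does not alter this ratio. By contrast, the log2 ratio of *Ccl2* to *Ccl7* averaged -0.49 ± 0.29 and -0.40 ± 0.053 (SD, n = 2), and that of *Ccl2* to *Ccl12* averaged 0.70 ± 0.021 and 0.76 ± 0.22 (SD, n = 2). Both of these ratios overlapped between the groups.

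**Figure D2:**
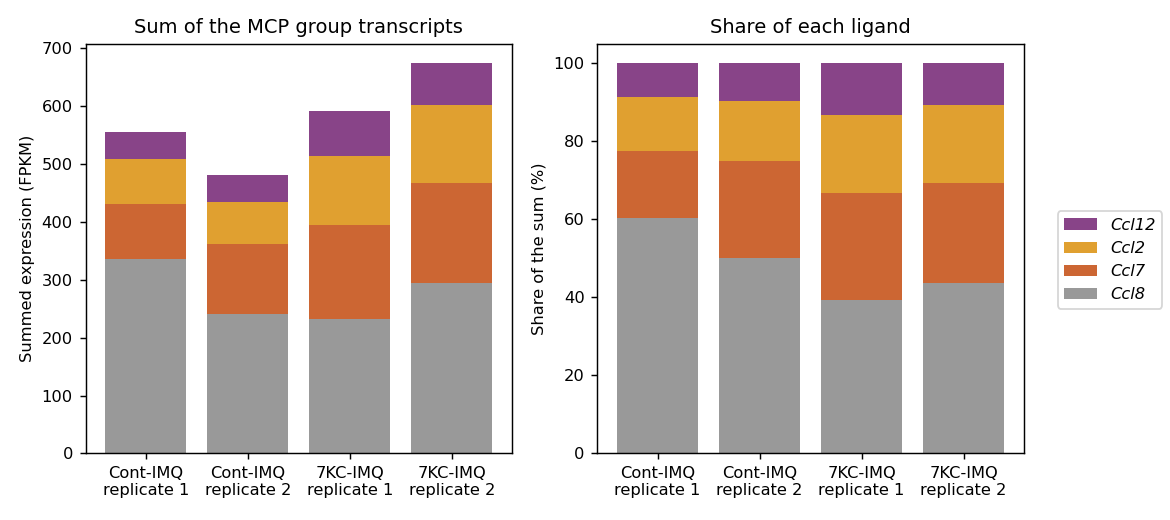
Summed FPKM of *Ccl8*, *Ccl7*, *Ccl2* and *Ccl12* in each library (left) and the share of each in that sum in percent (right). The *Ccl8* segment takes 60.3% and 50.1% of the Cont-IMQ bars and 39.4% and 43.7% of the 7KC-IMQ bars.

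*Ccl3* and *Ccl4* encode macrophage inflammatory proteins 1-alpha and 1-beta, which macrophages, neutrophils and lymphocytes release on activation. *Ccl3* (chromosome 11, 83647844 to 83649355, minus strand) had 3.48 and 7.60 FPKM under Cont-IMQ against 6.51 and 5.47 FPKM under 7KC-IMQ. Both 7KC-IMQ values lay between the Cont-IMQ values. These levels correspond to an estimated 30 reads (95% exact Poisson interval 20.2 to 42.8) and 65 reads (50.2 to 82.8) in the Cont-IMQ libraries, so the gap within that group was larger than counting error. The log2 fold change was 0.17 (standard error 0.33, 95% interval -0.71 to 1.04, adjusted p = 0.863 in limma), and it was -0.30 without Cont-IMQ replicate 1.

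*Ccl4* (chromosome 11, 83662584 to 83664683, plus strand) lies 13228 bases from *Ccl3*. It had 6.53 and 7.03 FPKM under Cont-IMQ against 7.19 and 9.71 FPKM under 7KC-IMQ. The groups did not overlap, but the lower 7KC-IMQ library was close to the higher Cont-IMQ library, at an estimated 54 and 49 reads, well within counting error of each other. The log2 fold change was 0.27 (standard error 0.16, 95% interval -0.15 to 0.69, adjusted p = 0.533 in limma), and it was 0.074 without 7KC-IMQ replicate 2 and 0.46 without 7KC-IMQ replicate 1.

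The receptors lie in a cluster of chemokine receptor genes on chromosome 9, with *Ccr1* at 123962124 to 123968692 on the minus strand and *Ccr2* at 124101950 to 124113557 on the plus strand. *Ccr2* marks classical monocytes. It had 5.23 and 3.71 FPKM under Cont-IMQ against 4.13 and 3.67 FPKM under 7KC-IMQ, so that the highest value was from Cont-IMQ, the lowest from 7KC-IMQ, and the middle ones crossed. The log2 fold change was -0.15 (standard error 0.17, 95% interval -0.60 to 0.30, adjusted p = 0.751 in limma). The log2 ratio of *Ccl2* to *Ccr2* within a library was 3.67 and 3.99 in the Cont-IMQ group and 4.54 and 4.86 in the 7KC-IMQ group (exact permutation p = 0.333, the smallest possible).

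*Ccr1*, a receptor of monocytes and neutrophils, had 1.53 and 1.80 FPKM under Cont-IMQ against 2.42 and 2.00 FPKM under 7KC-IMQ. The groups were separate, with the lower 7KC-IMQ library near the higher Cont-IMQ library. The estimated reads were 61 and 72 against 103 and 79, of which 72 and 79 were well within counting error of each other. The log2 fold change was 0.27 (standard error 0.13, 95% interval -0.070 to 0.61, unadjusted p = 0.0949 and adjusted p = 0.459 in limma), and it was 0.18 without 7KC-IMQ replicate 1.

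Of the 28 other CC chemokines, CC receptors and related genes listed, 25 were tested, and their median log2 fold change was -0.015. Without overlap, 4 were higher and 4 lower, against 23.9% and 22.9% of all genes. Of the 25, 0 passed the adjusted threshold in limma, where 3 were higher and 3 lower at an unadjusted p-value under 0.05. The genes higher without overlap were *Ccl19*, *Ccl25*, *Ccr6* and *Ccr9*. *Ccl19*, a ligand of CCR7 that guides dendritic cells and T cells, had 80.1 and 61.7 FPKM under Cont-IMQ against 147 and 123 FPKM under 7KC-IMQ, 0.92 apart on the log2 scale (adjusted p = 0.352 in limma, standard error 0.16). Its value is uncertain, as 45.3% of its 75-base windows also occur in other annotated copies. *Ccr6*, the CCL20 receptor of Th17 cells, had 0.447 and 0.195 FPKM against 1.08 and 0.663 FPKM, and was named after its values were seen, as were *Ccr9* and *Ccl5*.
The genes lower without overlap were *Ccl27a*, *Ackr4*, *Ccl21a* and *Ccl5*. *Ccl27a*, a keratinocyte chemokine that attracts T cells through CCR10, had 62.1 and 58.8 FPKM under Cont-IMQ against 36.9 and 24.6 FPKM under 7KC-IMQ, with 33.3% of its windows shared with near-identical copies. *Ccl21a*, made by lymphatic endothelium, had 71.4 and 60.8 FPKM against 48.5 and 52.7 FPKM, with 61.3% of its windows shared. *Ackr4*, a scavenger receptor for CCL19, CCL21 and CCL25, had 14.5 and 10.7 FPKM against 9.72 and 7.16 FPKM. *Ccl5*, which shares CCR1 with *Ccl3*, had 16.5 and 15.7 FPKM against 12.8 and 12.8 FPKM, which is -0.31 on the log2 scale (adjusted p = 0.356 in limma, standard error 0.081) and opposite in direction to *Ccl2*.

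**Figure D3:**
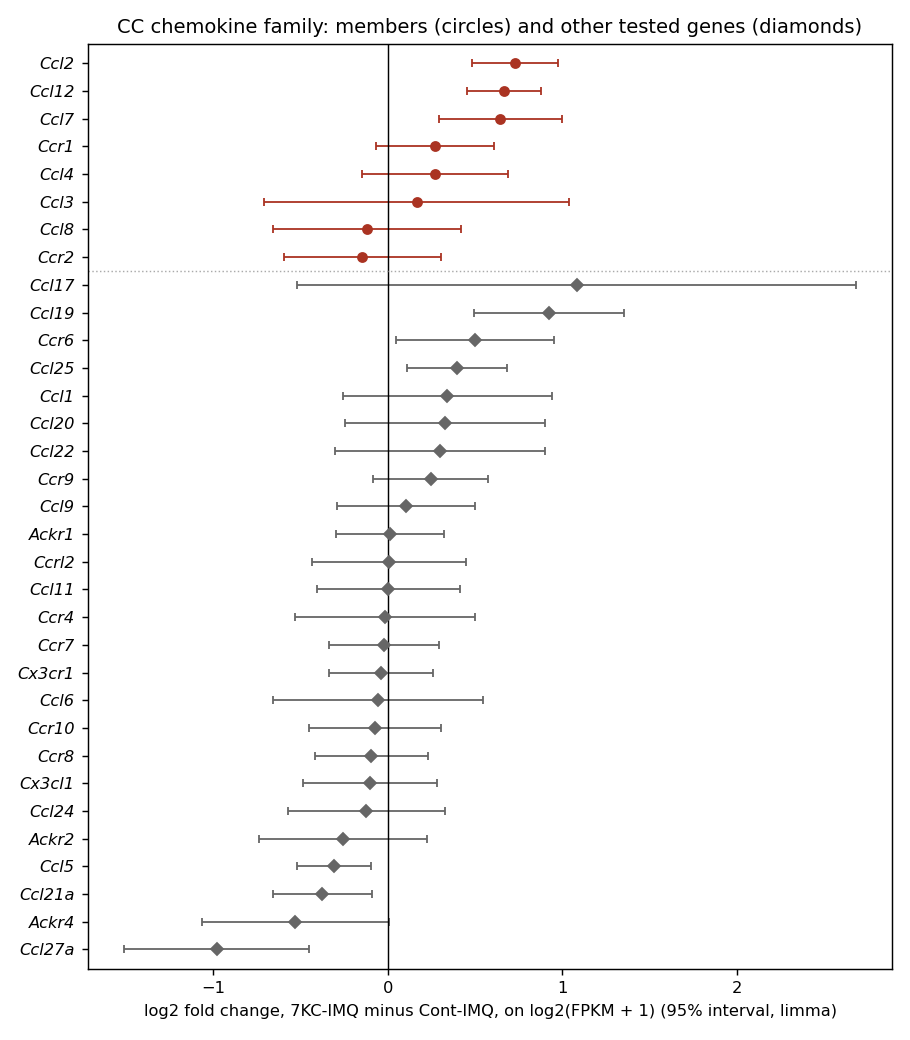
Log2 fold change (7KC-IMQ minus Cont-IMQ, on log2(FPKM + 1)) with its 95% interval from limma for the 8 members (circles) and the 25 other tested CC chemokines, CC receptors and related genes (diamonds), each in order of size. Among the members, the intervals of *Ccl2*, *Ccl12* and *Ccl7* lie above 0 before adjustment, and those of the other 5 include it.

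Genes that act downstream of these receptors showed no shared direction. Of 29 tested signaling genes, 4 were higher and 7 lower without overlap, against 23.9% and 22.9% of all genes. The signaling genes had a median log2 fold change of -0.047. None passed the adjusted threshold in limma (2 were higher and 0 lower at an unadjusted p-value under 0.05). *Stat3* had 81.9 and 68.5 FPKM under Cont-IMQ against 98.1 and 103 FPKM under 7KC-IMQ. *Rac1*, a GTPase of cell movement, had 157 and 152 FPKM against 174 and 180 FPKM. *Rac2*, a leukocyte GTPase needed for migration, had 20.9 and 25.4 FPKM against 18.5 and 19.6 FPKM, and *Dock2*, an activator of Rac proteins in leukocytes, had 3.41 and 3.36 FPKM against 3.14 and 2.65 FPKM.
Among genes listed as inducers of the members or as regulators of such inducers, more were higher than lower. The 26 tested were receptors, signaling proteins, transcription factors, inhibitors of these and cytokines. Without overlap, 14 were higher and 2 lower, against 23.9% and 22.9% of all genes, and the median log2 fold change was 0.19. Chemokine, TNF and IL-17 signaling genes were among the sets chosen for display from these same libraries, so the direction of such genes, members included, is not independent evidence. None passed the adjusted threshold in limma, while 9 were higher and 1 lower at an unadjusted p-value under 0.05. *Il17f* had 1.34 and 1.02 FPKM under Cont-IMQ against 5.08 and 6.33 FPKM under 7KC-IMQ, and *Il6* had 1.78 and 2.54 FPKM against 5.40 and 12.5 FPKM. *Irf7*, a transcription factor of the interferon response, lay the other way, with 186 and 179 FPKM under Cont-IMQ against 154 and 140 FPKM under 7KC-IMQ, as did *Irf5*, with 22.3 and 20.8 FPKM against 20.0 and 17.6 FPKM.

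Monocyte and macrophage markers did not follow *Ccl2*. Beside the counts that follow, 23.9% of all genes were higher and 22.9% lower without overlap. Of 12 monocyte markers tested, which include *Ccr2*, 1 was higher (*Hp*) and 2 were lower (*Plac8* and *Chil3*) without overlap. Their summed level was 545 to 763 FPKM in the Cont-IMQ group and 759 to 819 FPKM in the 7KC-IMQ group, of which *Hp*, an acute-phase gene that other cells also express, made up 186 to 501 FPKM. *Ly6c2*, the surface marker of classical monocytes, had 4.96 and 2.23 FPKM under Cont-IMQ against 3.81 and 4.47 FPKM under 7KC-IMQ. *Plac8* had 189 and 279 FPKM against 165 and 153 FPKM. Of 18 macrophage markers, 1 was higher (*Cd14*) and 4 were lower (*Csf1r*, *Cd68*, *Lyz2* and *Cd209f*) without overlap, with a median log2 fold change of -0.14 and summed levels of 1176 to 1448 FPKM against 1127 to 1190 FPKM. *Csf1r*, the receptor of the macrophage growth factor, had 20.1 and 17.7 FPKM against 17.3 and 16.6 FPKM, and *Adgre1*, which encodes F4/80, had 49.0 and 64.3 FPKM against 46.7 and 50.5 FPKM. No gene of either list was at 0 in every library.
Markers of neutrophils, which carry *Ccr1*, mostly lay higher. Of all genes, 23.9% were higher and 22.9% lower without overlap. Of 9 neutrophil markers tested, 6 were higher and 1 lower (*Fpr1*), with a median log2 fold change of 0.52. Some of those higher were near the floor, such as *Camp* at 0.336 and 0 FPKM against 0.628 and 0.682 FPKM. *Cxcr2*, also higher, was well above it, with 13.4 and 15.0 FPKM against 20.2 and 23.0 FPKM. *Fpr1* had 14.8 and 22.5 FPKM against 14.4 and 13.8 FPKM. The summed level of the 11 listed was 35.0 and 46.9 FPKM against 47.2 and 49.8 FPKM. *Csf3r*, the granulocyte growth factor receptor, had 3.80 and 3.64 FPKM against 3.93 and 4.50 FPKM. Endothelial markers lay lower, with 6 of 7 lower without overlap, a median log2 fold change of -0.41 and summed levels of 62.3 and 67.2 FPKM against 50.9 and 47.9 FPKM. *Pecam1* had 21.9 and 26.0 FPKM against 19.1 and 19.1 FPKM, whereas *Cdh5*, which encodes VE-cadherin, had 9.29 and 9.78 FPKM against 9.38 and 8.43 FPKM and was the marker that overlapped. None of the 4 lists held a gene past the adjusted threshold in limma. At an unadjusted p-value under 0.05, 1 monocyte, 0 macrophage, 4 neutrophil and 0 endothelial markers were higher, and 2, 2, 0 and 6 were lower. The part of these cell types in the differences of the chemokines was not tested.

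**Figure D4:**
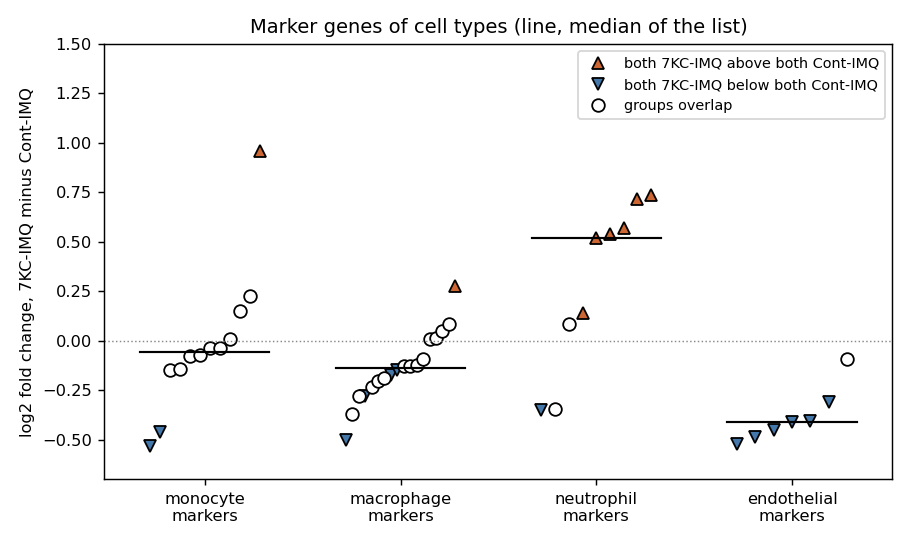
Log2 fold change (7KC-IMQ minus Cont-IMQ, on log2(FPKM + 1)) of each tested marker of monocytes (12), macrophages (18), neutrophils (9) and endothelial cells (7), with the median of each list as a line. Filled triangles mark genes whose groups do not overlap, and the medians are -0.054, -0.14, 0.52 and -0.41 from left to right.

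The genes most like *Ccl2* in their profile over the 4 libraries, among 13109 genes with a mean of at least 1 FPKM, were *Tlr2*, *Stom* and *Crispld2*. Likeness was the Euclidean distance between centered log2(FPKM + 1) profiles, which was 0.046, 0.047 and 0.065 for these genes. *Tlr2*, a receptor for bacterial lipoproteins, had 4.62 and 4.33 FPKM under Cont-IMQ against 7.30 and 8.31 FPKM under 7KC-IMQ. By the same measure, *Ccl12* ranked 54th in likeness to *Ccl2* and *Ccl7* ranked 164th, at distances of 0.23 and 0.31, whereas *Ccl8* ranked 9628th. The genes most like *Ccr2* were *Exph5*, *Rassf5* and *Susd2*, at distances of 0.018 to 0.033, and *Ccl8* ranked 4317th in likeness to *Ccr2*. With 4 libraries these distances describe a pattern only.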

How the data were processed

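RNA sequencing of dorsal skin was analysed in 4 libraries, grouped by the sample titles. Per the labels, libraries were made with a stranded mRNA kit. The submitters' processing notes name mm10, TopHat2 2.1.1, Bowtie2 2.2.8, SAMtools 0.1.18 and Cuffdiff 2.2.1, and the paper's methods name Cufflinks and other versions. The authors deposited FPKM values, 1 file per library. The gene annotation and the treatment of reads that map to several genes are not given in the sources used here.

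FPKM was transformed to log2(FPKM + 1), which understates fold changes of genes with low FPKM. The 15896 genes whose mean FPKM reached 0.1, all 8 members among them, were tested in R 4.3.3 with limma 3.58.1 (a linear model and moderated variances with a trend on mean expression), and p-values were adjusted by Benjamini-Hochberg with a threshold of 0.05. The test was checked only on simulated data with larger changes than any member showed. That check does not cover differences of the members' size. Ratios of genes within a library were compared by a two-sided exact permutation test. Tables were made in Python 3.11.15.

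The tables hold no read counts. Reads were estimated for genes with a single annotated transcript, assuming fragments of 200 bases, at the depth that brought most low values within 0.1 of a whole number of reads (74.2% to 78.8% of 325 to 333 genes, where 20% is expected by chance). Only a limited range of depths was searched. Intervals cover counting error only. Positions, transcripts and shared 75-base windows came from GENCODE M21 (GRCm38) and upstream sequences from RefSeq, in which windows of 5 of the 8 members were used.

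The members and gene lists were chosen with earlier results of these data known, and 1 gene of the CC family is not reported here. Genes named were the 8 members and, of the other CC genes, up to 3 with the largest differences each way without overlap whose mean FPKM reached 1, likewise up to 2 for signaling and inducing genes. They also included 4 monocyte and macrophage markers, the first 2 genes of each other marker list (where tested), the 3 genes most like *Ccl2* and *Ccr2*, and chromosome neighbors, which are given where a result turns on them. Other marker genes were named after their values were seen. Alternatives were other scalings (median ratio, same sum, quantile), a pseudocount of 0.1, other filters, a fit without the trend, a block for the replicate number, and each library left out.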

Additional observations from a re-analysis of the deposited data

How the results depend on the processing

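No member passed the adjusted threshold under any alternative that kept all libraries. *Ccl2*, *Ccl7* and *Ccl12* were higher without overlap under each of the other scalings, where 15% to 23.8% of all genes were. The remaining alternatives could not change this, as they keep the order of a gene's values or only drop a library. The median log2 fold change of the members, 0.27, became 0.34 with a pseudocount of 0.1, and 0.21 with rescaling to the same sum, and lay between 0.21 and 0.49 with each library left out. With a library left out, 5 or 6 of the 8 members were higher without overlap, where 33.2% to 38.9% of all genes were. In the same fits, 1 or 2 of the 8 were lower without overlap, where 33.5% to 39.1% of all genes were. Of all genes, 1 passed the threshold, 2 with a pseudocount of 0.1, and 1 to 11 with a library left out. Without Cont-IMQ replicate 1, the log2 fold change was 0.12 in *Ccl8*, -0.30 in *Ccl3* and 0.055 in *Ccr2*, and without 7KC-IMQ replicate 1 it was 0.049 in *Ccl8*, all of them reversed. With each library left out it ranged from -0.36 to 0.12 in *Ccl8*, from -0.30 to 0.64 in *Ccl3* and from -0.35 to 0.055 in *Ccr2*, the far ends being those without Cont-IMQ replicate 2. The cause was not tested. With the replicate block, 0 members passed and their lowest adjusted p-value was 0.395 in limma. The labels do not say that a replicate number marks a shared litter or batch, and deviations of same-numbered libraries correlated weakly over genes (r = 0.0651), so no pairing was assumed.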

Other observations

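Among markers of other cells that can be present in skin, mast cell genes had 0 higher and 3 lower of 7 without overlap, with a median log2 fold change of -0.26. Over all genes, 23.9% were higher and 22.9% lower without overlap. Fibroblast genes had 2 higher and 1 lower of 7 (median 0.27), and adipocyte genes had 2 higher and 0 lower of 5 (median 0.32). T and NK cell genes had 2 higher and 2 lower of 9 (median -0.0088), dendritic and Langerhans cell genes 2 higher and 1 lower of 10 (median 0.0012), and keratinocyte genes 2 higher and 1 lower of 8 (median -0.019). Skeletal muscle genes had 2 higher and 2 lower of 6 (median -0.090), red blood cell genes 0 higher and 1 lower of 3 (median -0.038), and hair follicle genes 0 of 8 either way (median 0.027). The lower red blood cell gene was *Hbb-bs*, at 8.32 and 0.00438 FPKM under Cont-IMQ against 0.00392 and 0.00430 FPKM under 7KC-IMQ. Its separation thus rests on values near 0. No gene of these lists passed the adjusted threshold in limma. At an unadjusted p-value under 0.05, 2 adipocyte, 1 fibroblast, 1 keratinocyte and 1 muscle gene were higher, and 2 mast cell, 2 T and NK cell, 1 keratinocyte and 1 muscle gene were lower.

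Of the first genes of these lists, *Myh4*, a fast muscle myosin, had 125 and 62.9 FPKM under Cont-IMQ against 427 and 329 FPKM under 7KC-IMQ. *Acta1* was lower without overlap, with 2848 and 3133 FPKM against 2106 and 2583 FPKM. *Lep*, the adipocyte hormone leptin, had 1.64 and 1.16 FPKM against 9.75 and 3.70 FPKM, and *Adipoq*, which encodes adiponectin, had 66.8 and 94.1 FPKM against 97.3 and 77.9 FPKM. The T cell receptor component *Cd3e* had 3.76 and 3.05 FPKM against 2.47 and 2.36 FPKM, and *Cd3d* had 1.45 and 1.46 FPKM against 1.57 and 1.47 FPKM. The mast cell protease *Cpa3* had 14.2 and 15.9 FPKM against 13.3 and 14.1 FPKM. The groups overlapped in *Adipoq*, *Mcpt4* (35.1 to 44.1 FPKM), *Cd207* (18.8 to 24.3 FPKM), *Flt3* (0.476 to 0.901 FPKM), *Col1a1* (471 to 819 FPKM), *Col1a2* (507 to 739 FPKM), *Krt25* (31.6 to 442 FPKM), *Krt27* (15.5 to 254 FPKM) and *Hba-a1* (6.46 to 25.3 FPKM).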
